A study of Mus musculus with 8 samples.

Results

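The replication-dependent histone genes of the Hist1 and Hist2 clusters were followed in mouse mammary tumors with and without a Cre transgene directed at Mmp14. Members were all genes whose array row carries a single symbol of the form H1f1 to H1f5, H2ac, H2bc, H3c or H4c with a number (the older symbols start with Hist1h to Hist4h), each shown by its row with the highest mean. This gave 25 of the 22180 genes with such a row, namely 4 H1, 6 H2A, 8 H2B and 7 H4 genes, and no H3 gene. RefSeq lists 64 genes under these names. Of the others, 37 were measured only by rows that the platform annotation gives to several histone genes, among them all 12 H3 genes, and the H2A pseudogenes H2ac14 and H2ac5-ps had no row.

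Gene expression was measured on Affymetrix arrays in 8 whole tumors, 1 array per tumor. All 8 mice carried the MMTV-PyMT transgene, in which a mammary tumor virus promoter drives the polyoma middle T oncogene in mammary epithelium, and homozygous floxed Mmp14 on a congenic FVB/NJ background. In the 4 conditional knockout tumors (cKO) the mice also carried MMTV-Cre, a Cre recombinase under the same promoter, and the 4 littermates without Cre are called wild type (WT) although their Mmp14 alleles are floxed. Mice were 3 to 4 months old, and tumors came from inguinal and thoracic glands, with RNA from the intact tissue. The labels call the 8 tumors biological replicates and name no batch. Which cells of these tumors expressed Cre was not measured here, and Cre and the loss of Mmp14 cannot be told apart in this design.

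Replication-dependent histone genes supply the linker histone H1 and the core histones H2A, H2B, H3 and H4 that package newly copied DNA. Their mRNAs rise in S phase, when NPAT activates transcription of the clusters, and end in a stem-loop bound by SLBP in place of a poly(A) tail. The genes are short, lack introns as a rule, lie in clusters and often stand head to head as H2A and H2B pairs. Many copies encode the same or nearly the same protein, and near-identical copies can share hybridization signal, so the value of any single gene here is uncertain to that degree.

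The start regions of the members show how the types differ in sequence. RefSeq windows of 300 bases, from 250 before to 50 after the transcript start, were available for 23 of the 25 members. The window of the member with the smallest p of each type is printed here, since these 4 genes lead the results below. Capitals mark the TATA box letters TATAAA, the CCAAT box and the octamer ATTTGCAT, which octamer-binding factors recognize, wherever they stand on either strand.
H1f5 (GRCm38.p6, chr13:21780576-21780875, minus strand): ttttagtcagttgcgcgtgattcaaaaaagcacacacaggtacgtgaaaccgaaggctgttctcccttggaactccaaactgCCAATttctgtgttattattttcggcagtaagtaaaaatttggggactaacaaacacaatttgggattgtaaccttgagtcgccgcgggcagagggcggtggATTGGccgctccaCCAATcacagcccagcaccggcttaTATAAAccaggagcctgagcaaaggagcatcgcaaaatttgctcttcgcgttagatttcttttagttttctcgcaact
H2ac10 (GRCm38.p6, chr13:23533625-23533924, plus strand): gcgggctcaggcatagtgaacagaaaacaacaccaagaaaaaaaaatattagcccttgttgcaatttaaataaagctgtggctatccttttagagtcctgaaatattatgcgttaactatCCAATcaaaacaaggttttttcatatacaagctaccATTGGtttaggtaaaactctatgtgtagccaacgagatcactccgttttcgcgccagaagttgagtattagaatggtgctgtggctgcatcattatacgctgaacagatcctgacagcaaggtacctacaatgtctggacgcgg
H2bc12 (GRCm38.p6, chr13:22035571-22035870, plus strand): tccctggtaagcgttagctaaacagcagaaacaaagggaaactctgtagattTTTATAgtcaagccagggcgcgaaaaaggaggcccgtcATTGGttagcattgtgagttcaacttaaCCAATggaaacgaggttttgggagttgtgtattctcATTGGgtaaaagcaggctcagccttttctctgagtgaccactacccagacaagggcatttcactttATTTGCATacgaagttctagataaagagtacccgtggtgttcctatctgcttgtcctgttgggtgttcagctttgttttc
H4c12 (GRCm38.p6, chr13:21750504-21750803, minus strand): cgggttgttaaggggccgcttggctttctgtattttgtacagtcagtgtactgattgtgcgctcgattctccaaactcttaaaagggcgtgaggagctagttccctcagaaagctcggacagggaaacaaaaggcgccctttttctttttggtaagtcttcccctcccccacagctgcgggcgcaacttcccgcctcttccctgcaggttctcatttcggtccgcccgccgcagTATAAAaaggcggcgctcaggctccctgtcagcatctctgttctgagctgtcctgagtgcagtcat

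The short motifs were spread unevenly over the types in these windows. CCAAT stood in all 17 windows of H1, H2A and H2B genes and in 1 of 6 H4 windows, against 37.4% of all 32851 RefSeq windows of this length. TATAAA stood in 16 of 23 member windows and in 13.6% of all windows. The octamer stood in 5 of 7 H2B and 3 of 6 H2A windows, in none of the H1 or H4 windows and in 1.74% of all windows. Another motif searched on both strands, TTTCGCGC, of the kind bound by E2F factors and not in capitals above, stood in 4 of 23 member windows (2 H2A and 2 H2B) and in 0.323% of all windows. The windows of the head-to-head pair H2ac12 and H2bc12 share 277 bases, and those of H2ac1 and H2bc1 share 220, so these counts are not independent. Matches are letters in a window and were not tested as binding sites.

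Across the 25 genes, 18 had a higher mean in cKO and 7 a lower one, with a median difference of 0.16 on the log2 scale. Over all 23521 rows tested, 56.5% were higher and the median difference was 0.02. None of the 25 passed limma's test at an adjusted p of 0.05, where 2 rows in all (0.0085%) passed. At an unadjusted p below 0.05 there were 8 members, all higher in cKO, against 5.54% of all rows in that direction. In 6 members every cKO tumor lay above every WT tumor, which held for 3.68% of all rows, and in no member did every cKO tumor lie below every WT tumor (1.73% of all rows). The 6 were H2bc12, H2bc3, H2ac10, H2ac20, H4c12 and H1f1. Leaving out a tumor cannot lower this number, nor the share over all rows. With single tumors left out, the number ran from 6 to 10. The highest, 10 without cKO 3, stood against 5.99% of all rows in that fit and added H1f5, H2bc18, H2ac21 and H2ac12. In bulk tumors, more cells of a type and more RNA per cell cannot be told apart.

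**Figure D1:**
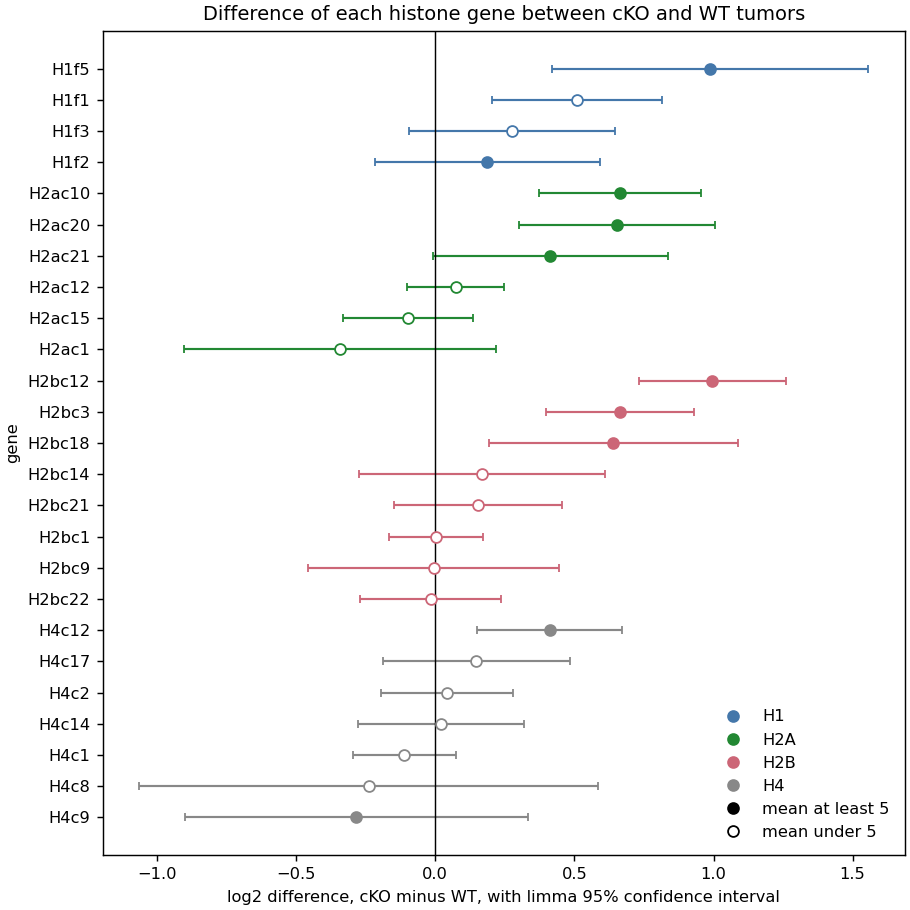
Difference in log2 signal between cKO and WT tumors for each of the 25 genes, with limma's 95% confidence interval, ordered within histone type; filled points have a mean log2 signal of at least 5. H2bc12 and H1f5 lie farthest to the right at 1.00 and 0.99, H2ac1 farthest to the left at −0.34, and no gene passed the adjusted threshold.

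Members with a higher signal had larger differences, by median. Signals of different rows are not amounts of RNA on a common scale, since probes differ in how they bind. Log2 signals, averaged over the 8 tumors, ran from 1.64 for H2ac12 to 9.08 for H2ac10, where the median over all array rows was 3.67. A mean of at least 5 was reached by 10 members, of which 9 were higher in cKO with a median difference of 0.65, beside 51.6% higher and a median of 0.01 over all 10186 rows of that level. In 5 of the 10 the groups did not overlap, against 4.96% of those rows. Below 5, the 15 members had a median difference of 0.02, and 9 were higher (60.0%). Over all 13335 rows of that level, 60.3% were higher and the median was 0.03. The exception among the 10 was H4c9, at −0.28. Signals below 5 were not shown to be above background, so a difference near 0 there does not show an unchanged RNA, and the split by level is a description only.

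**Figure D2:**
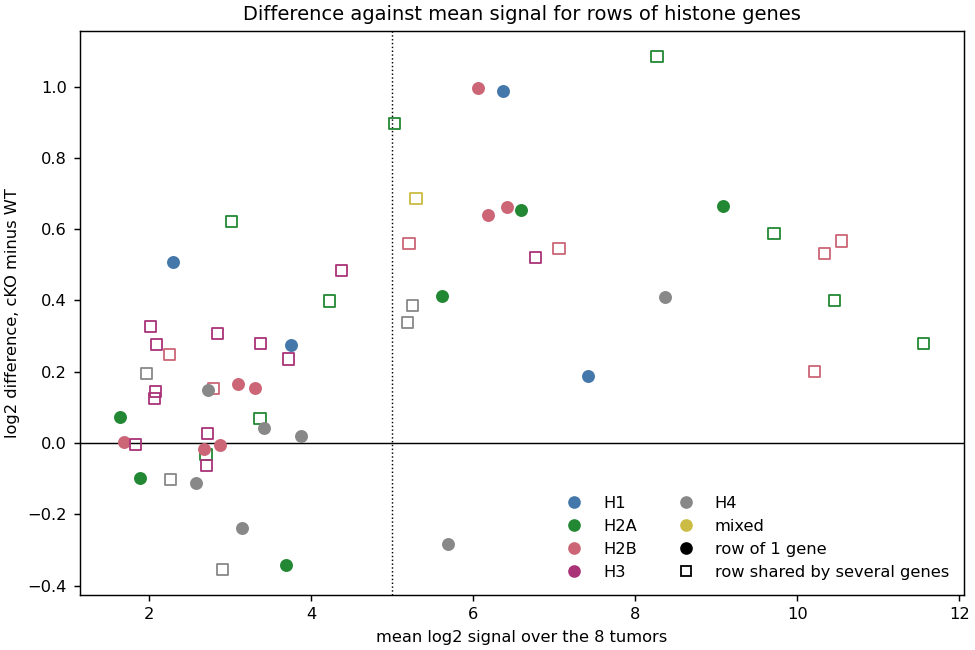
Log2 difference between cKO and WT against the mean log2 signal over the 8 tumors, for the 25 rows of a single histone gene (filled circles) and the 34 distinct rows shared by several histone genes (open squares), coloured by type; the dotted line stands at a mean of 5. To the right of the line H4c9 alone lies below 0, at −0.28.

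H2B genes, which encode a core histone paired with H2A in the nucleosome, held the member with the smallest p. H2bc12 had log2 signals of 5.39, 5.65, 5.56 and 5.64 in WT 1 to 4 and of 6.39, 6.85, 6.44 and 6.54 in cKO 1 to 4. The groups did not overlap, and the lowest cKO tumor exceeded the highest WT tumor. The difference was 1.00 (SE 0.12, limma adjusted p 0.0776), a ratio of signals of 1.99, with an exact two-sided permutation p of 0.0286, below which a design of 4 and 4 tumors cannot go. When each array was shifted to a common median, the difference was 1.01 with a limma adjusted p of 0.0480, so that this gene passed under that setting. Over all settings its adjusted p ran from 0.0480 to 0.406, and the difference was 1.10 within the arrays numbered 1 to 4 and 0.89 within those numbered 5 to 8.

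H2bc3 showed the same order of groups at a similar level. Its log2 signals were 5.99, 6.23, 6.27 and 5.87 in WT and 6.92, 6.67, 6.60 and 6.82 in cKO, with no overlap. It was higher in cKO by 0.66 (SE 0.12, limma adjusted p 0.142). H2bc18, of the Hist2 cluster, had 5.47, 6.37, 5.78 and 5.86 in WT and 6.59, 6.83, 6.17 and 6.45 in cKO. Here cKO 3 lay below WT 2, the highest WT tumor, and the other cKO tumors lay above all WT tumors. The difference was 0.64 (SE 0.20, limma adjusted p 0.361).

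The remaining H2B members were dim and close to 0. H2bc21 and H2bc14 differed by 0.16 (SE 0.13) and 0.17 (SE 0.20), and their groups overlapped. H2bc21 was at 0.04 without cKO 1, and H2bc14 at −0.0046 without cKO 2. H2bc22 stood at −0.02, H2bc9 at −0.0062 and at 0.0072 with arrays shifted to a common median, and the testis histone gene H2bc1 at 0.0030 and at −0.01 after a further quantile normalization. Over the 8 H2B genes, 6 were higher, where 56.5% of all rows were. The median difference was 0.16, which was 0.08 without cKO 1 and 0.24 without cKO 3.

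H2A genes encode the partner of H2B. H2ac10, the brightest member, had log2 signals of 8.48, 8.72, 8.89 and 8.92 in WT and 9.50, 9.58, 9.15 and 9.43 in cKO. All cKO tumors lay above all WT tumors, with a difference of 0.66 (SE 0.13, limma adjusted p 0.164). Taken by array number, it was 0.94 in arrays 1 to 4 and 0.39 in arrays 5 to 8. H2ac20, from the Hist2 cluster, had 5.94, 6.59, 6.28 and 6.25 in WT and 7.13, 6.99, 6.60 and 6.96 in cKO. Its groups were apart by a narrow margin, since cKO 3 and WT 2 differed little. The difference was 0.65 (SE 0.16, limma adjusted p 0.227).

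Its neighbour H2ac21 had 5.07, 5.69, 5.40 and 5.47 in WT and 6.10, 6.05, 5.34 and 5.79 in cKO. In this gene cKO 3 lay within the WT range. The difference was 0.41 (SE 0.19, limma adjusted p 0.528), being 0.70 in arrays 1 to 4 and 0.13 in arrays 5 to 8. A dimmer second row of H2ac21, at a mean of 1.96, differed by −0.07 (SE 0.08), so the rows of this gene disagreed in sign, and the mean over both rows differed by 0.17. H2ac1, the testis-specific H2A gene, had the lowest difference of all members at −0.34 (SE 0.25, limma adjusted p 0.690), with overlapping groups, and stood at 0.22 in arrays 1 to 4 and at −0.90 in arrays 5 to 8. It was at −0.19 without WT 3 and −0.54 without WT 1. H2ac12 stood at 0.07 and H2ac15 at −0.10, both at means below 2. Of the 6 H2A genes 4 were higher, beside 56.5% of all rows. Their median difference was 0.24, which was 0.12 with the mean over the rows of H2ac21 and 0.0010 with its dimmer row.

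Linker histone genes were all higher in cKO, 4 of 4 beside 56.5% of all rows, with a median difference of 0.39. H1f5 had log2 signals of 5.77, 6.52, 5.75 and 5.47 in WT and 7.02, 7.05, 6.28 and 7.11 in cKO. The groups overlapped through cKO 3, which lay under WT 2. The difference was 0.99 (SE 0.25, limma adjusted p 0.264), a ratio of signals of 1.98, and the exact permutation p was 0.0571. H1f1, a dim row, had 2.14, 2.10, 2.13 and 1.79 in WT and 2.85, 2.58, 2.27 and 2.50 in cKO, without overlap. It differed by 0.51 (SE 0.14, limma adjusted p 0.288), a difference of signals at a level not shown to be above background.

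The other linker histone genes had overlapping groups. H1f2, the brightest of the type, had 7.63, 7.20, 7.04 and 7.42 in WT and 7.45, 7.10, 7.66 and 7.83 in cKO. WT 1 exceeded cKO 1 and cKO 2, and the difference was 0.19 (SE 0.18, limma adjusted p 0.777), being −0.14 in arrays 1 to 4 and 0.52 in arrays 5 to 8. It was at 0.08 without cKO 4 and 0.32 without cKO 2. H1f3 differed by 0.28 (SE 0.16, limma adjusted p 0.630), and by 0.17 without WT 1 and 0.43 without WT 2.

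H4 genes encode the most conserved core histone, and their differences were spread around 0. H4c12 had log2 signals of 7.98, 8.29, 8.07 and 8.32 in WT and 8.58, 8.73, 8.35 and 8.65 in cKO. The groups did not overlap, though cKO 3 exceeded WT 4 only slightly. The difference was 0.41 (SE 0.12, limma adjusted p 0.315). H4c9 had 5.30, 6.08, 6.45 and 5.50 in WT and 5.37, 5.48, 5.23 and 6.10 in cKO. WT 2, WT 3 and cKO 4 were high and the other 5 tumors low, so high and low tumors occurred in both groups. The difference was −0.28 (SE 0.27, limma adjusted p 0.777), and −0.08 without WT 3 and −0.47 without cKO 4.

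The other 5 H4 genes were dim. H4c17 differed by 0.15 (0.24 without WT 2 and 0.04 without cKO 2), H4c2 by 0.04 (−0.02 without cKO 4), H4c14 by 0.02 (0.13 without cKO 1), H4c1 by −0.11 (−0.07 without WT 3) and H4c8 by −0.24 (0.12 without WT 2). H4c8 was the most variable, from 2.58 in WT 4 to 4.36 in WT 2. Of the 7 H4 genes 4 were higher (57.1%), near the 56.5% of all rows. Their median difference was 0.02, as it was over all rows, and ran from −0.04 to 0.10 when single tumors were left out.

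**Figure D3:**
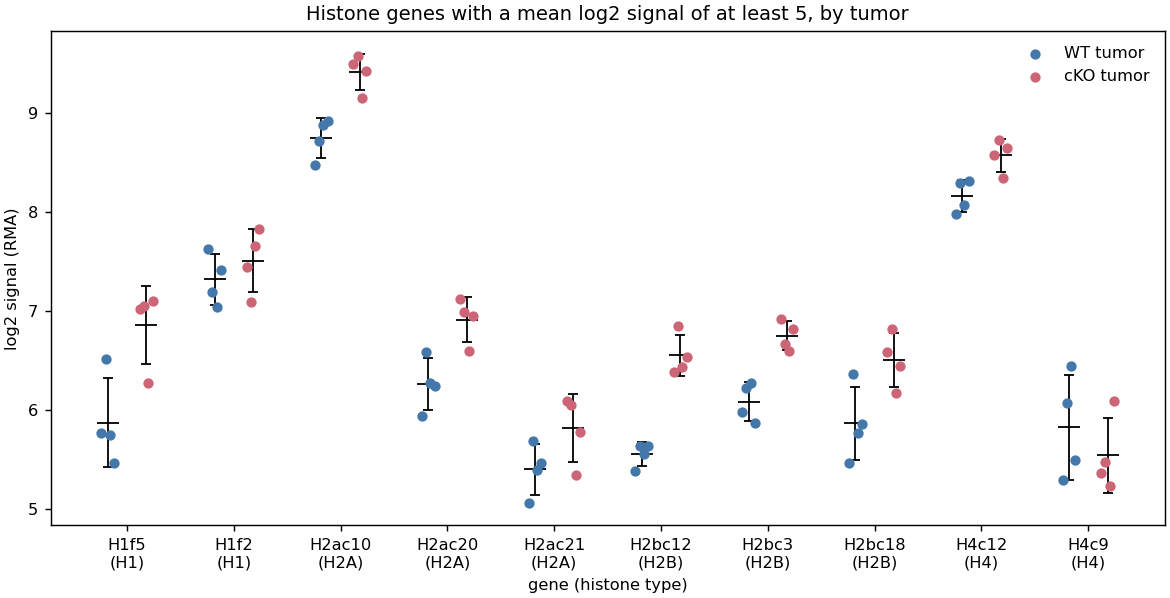
Log2 signal of the 10 members with a mean of at least 5 in each tumor, with WT and cKO side by side; horizontal marks and bars give the mean and SD of 4 tumors. The groups are apart for H2ac10, H2ac20, H2bc12, H2bc3 and H4c12 and overlap for the other 5, and H4c9 has its highest tumor, at 6.45, among the WT.

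Members that stand next to each other in the clusters often had unlike differences, but several of these neighbours were dim. H2bc12, at 1.00, lies between H2ac12 at 0.07 and H4c9 at −0.28, and its start window overlaps that of H2ac12. The mean signal was 6.06 for H2bc12 and only 1.64 for H2ac12. H4c8 at −0.24 is followed by H2ac10 at 0.66, with means of 3.15 and 9.08. In the Hist2 cluster, H2ac21, H2ac20 and H2bc21 stand in a row at 0.41, 0.65 and 0.16, and H2bc21 had a mean of 3.31. A difference near 0 in a dim row does not show that neighbours differ in RNA. All 5 Hist2 members were higher in cKO with a median of 0.41. Of the 20 Hist1 members 13 were higher with a median of 0.11. Over all rows, 56.5% were higher and the median was 0.02. At a mean of at least 5, Hist2 members differed by 0.41, 0.65 and 0.64. Hist1 members of that level differed by 0.99, 0.19, 0.66, 1.00, 0.66, 0.41 and −0.28. Dim members, with a median difference of 0.02, lie in both clusters. The contrast between the clusters was not tested.

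Tumors of a group were not alike. A score, the mean over genes of the log2 signal relative to that gene's mean over the 8 tumors, was −0.25, 0.06, −0.08 and −0.20 for all members in WT 1 to 4 and 0.16, 0.16, −0.04 and 0.18 in cKO 1 to 4. Thus cKO 3 lay between WT 3 and WT 2, and stood apart from the other cKO tumors. The H2B score separated the groups, with −0.25 to −0.09 in WT and 0.08 to 0.21 in cKO, as did the H1 score, with −0.38 to 0.01 in WT and 0.05 to 0.38 in cKO. The H2A score did not, because cKO 3 at −0.13 lay below 3 WT tumors, and the H4 score had its highest value, 0.29, in WT 2 and its lowest, −0.18, in WT 4. WT 1 was the lowest tumor for 8 members, and neither cKO 3 nor WT 4 was the highest for any.

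**Figure D4:**
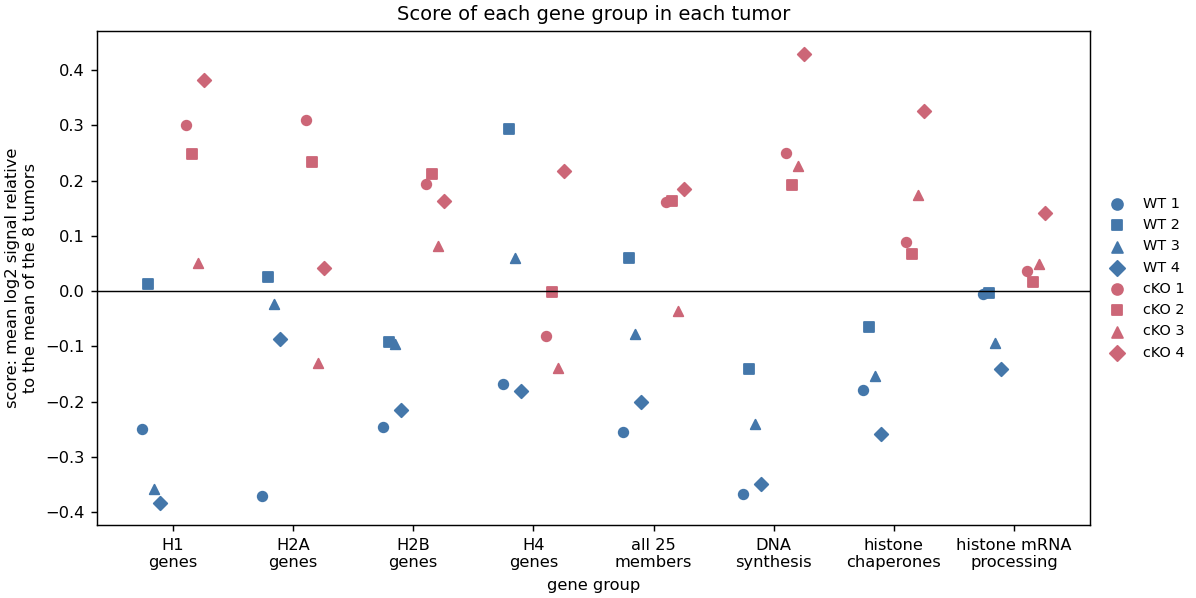
Score of each gene group in each tumor, on the log2 scale, with WT in blue, cKO in red and a symbol per replicate number. The H1 and H2B scores separate the groups, the H4 score runs from −0.18 to 0.29 within WT alone, and cKO 3 is the lowest cKO tumor for H1, H2A, H2B and H4 genes but not for DNA synthesis genes.

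Because most histone genes are measured only together with their copies, the rows shared by several histone genes were compared as well, in the fit over all 41345 rows. There were 37 such rows with 34 distinct sets of values. Of these 34, 29 were higher in cKO, where 53.9% of all rows were, and their median difference was 0.29. No shared row passed (0.0193% of all rows did), and 9 had every cKO tumor above every WT tumor, against 3.03% of all rows. The same genes stand behind several rows, so these counts are not independent, and no single gene can be named from them.

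H3, the core histone with no member of its own, was represented by 12 shared rows from sets of 4 and 8 genes. Of these, 10 were higher in cKO, where 53.9% of all 41345 rows were, with differences from −0.06 to 0.52, and 11 had a mean below 5. The bright row, shared by 8 H3 genes, had 6.18, 6.64, 6.62 and 6.57 in WT and 7.13, 6.93, 6.95 and 7.10 in cKO. Its groups did not overlap, with a difference of 0.52 (SE 0.12, limma adjusted p 0.312).

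Shared rows of H2A and H2B genes were nearly all higher in cKO, where 53.9% of all 41345 rows were. Of 9 distinct H2A rows, 8 were higher, and the largest difference, in a row of 10 genes, was 1.08 (SE 0.16, limma adjusted p 0.221). That row had 7.59, 8.12, 7.80 and 7.40 in WT and 8.82, 8.72, 8.65 and 9.05 in cKO. In this row cKO 3 was close to the other cKO tumors and well above WT 2. All 7 distinct H2B rows were higher, by 0.15 to 0.57, and the brightest of them, shared by 12 genes, differed by 0.57 (SE 0.11, limma adjusted p 0.261). The 5 H4 rows ran from −0.35 to 0.38, with 3 higher, among them the 2 with a mean of at least 5. A row shared by an H1 gene and 3 H2B genes differed by 0.69 (SE 0.23).

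Genes that make, handle and deposit histones were compared from lists fixed with the members. Of 18 measured genes of histone mRNA processing, 16 were higher in cKO, where 56.5% of all rows were. None passed the adjusted threshold, 2 had an unadjusted p below 0.05 and a higher mean in cKO, where 5.54% of all rows did, and the median difference was 0.13. Slbp, which encodes the stem-loop binding protein, averaged 7.63 ± 0.15 in the WT and 7.79 ± 0.11 in the cKO tumors (SD, n = 4), a difference of 0.16 (limma adjusted p 0.638). Npat differed by 0.09 (0.06 without cKO 4) and Casp8ap2, a factor of histone transcript processing, by 0.21, with overlapping groups. Cstf2, of the cleavage machinery, differed by 0.26 (limma adjusted p 0.439), the cap-binding gene Ncbp2 by 0.37 and Srrt by 0.21.

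The chaperone list was higher by more. Of 23 measured genes 21 were higher, none passed, 13 had an unadjusted p below 0.05 in that direction, and the median difference was 0.34. Of all rows, 56.5% were higher and 5.54% were higher with such a p. Chaf1b, a subunit of the CAF-1 complex that places H3 and H4 on new DNA, averaged 7.24 ± 0.21 in the WT and 7.96 ± 0.15 in the cKO tumors (SD, n = 4), a difference of 0.71 (limma adjusted p 0.142). Dnajc9, a histone chaperone, differed by 0.64, Mms22l, which acts at replication forks, by 0.54, and Mcm2, a helicase subunit that binds H3 and H4, by 0.77. Nasp, the H3 and H4 storage chaperone, differed by 0.35 (limma adjusted p 0.499), and by 0.22 without cKO 4. The genes lower in cKO were Daxx at −0.32 and Cabin1 at −0.20, named after their values were seen.

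Histone variants not limited to S phase, many of whose mRNAs are polyadenylated, had 10 of 13 measured genes higher, where 56.5% of all rows were. None passed the threshold, and the median was 0.24. An unadjusted p below 0.05 with a higher mean was met by 5, against 5.54% of all rows. The genes lower in cKO were H2az1 at −0.34, Hils1 at −0.05 and H2aj at −0.04, named after their values were seen. Cenpa, the centromeric H3, differed by 0.57 (limma adjusted p 0.190) and H2ax, which marks DNA breaks, by 0.52 (limma adjusted p 0.291). The linker variant H1f10 differed by 0.87 (SE 0.30, limma adjusted p 0.427), with an SD of 0.66 in WT. H2ab1, in a dim row with overlapping groups, differed by 0.30 (limma adjusted p 0.492), and by 0.15 with the mean over its rows.

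The DNA synthesis list, which served as the measure of S-phase genes, had all 35 measured genes higher. None passed, 31 had an unadjusted p below 0.05, against 5.54% of all rows in that direction, and the median difference was 0.51. Its score was −0.37, −0.14, −0.24 and −0.35 in WT 1 to 4 and 0.25, 0.19, 0.23 and 0.43 in cKO 1 to 4. The 4 WT tumors stood in the same order by this score as by the score of all histone members, WT 1 lowest and WT 2 highest, and cKO 4 was the highest tumor by both. Among the cKO tumors, cKO 3 was lowest by the histone score and cKO 2 by the DNA synthesis score, where cKO 2 and cKO 3 lay close together. Mcm5 differed by 0.80, Prim1, a primase subunit, by 0.81, Cdc7 by 0.72 and Ccne1 by 0.79.

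The tissue and the labels were checked on other genes. Mmp14 fell in cKO, to 7.72 ± 0.22 from 9.12 ± 0.19 in WT (SD, n = 4; difference −1.40, limma adjusted p 0.0444), a call that was lost without any 1 of 6 tumors, at an adjusted p of up to 0.211 without cKO 4. The luminal genes Krt8, Krt18, Epcam and Cdh1 had means of 10.3 to 10.5 over the 8 tumors, and Pgr a mean of 2.83. Of other cell type lists, macrophage markers were higher in 7 of 8 genes, with mean levels of 6.25 to 6.69 in WT and 6.79 to 7.15 in cKO, and fibroblast markers lower in 7 of 7, with 8.23 to 8.88 in WT and 5.95 in cKO 3 to 8.63 in cKO 4. Luminal markers were lower in 8 of 8 genes, with 8.40 to 8.76 in WT and 8.11 to 8.49 in cKO, and endothelial markers in 6 of 6, with 5.85 to 6.26 and 5.46 to 6.17. Over all 23521 rows, 56.5% were higher in cKO, and 2277 had an unadjusted p below 0.05 in either direction. Such a p was met by 6 macrophage, 4 fibroblast, 1 luminal and 1 endothelial gene, in the directions given. Basal markers, as a score, ran from −0.28 to 0.37 in WT and −0.60 to 0.29 in cKO, and mean levels of T cell markers ran from 3.79 to 4.32 and 4.03 to 4.35, B cell markers from 2.96 to 3.14 and 2.95 to 3.19, and adipocyte markers from 3.91 to 4.07 and 3.53 to 4.35. No gene of these cell type lists passed the threshold, and their part in the histone differences was not tested. Germ cell markers, given for the testis histones H2ac1 and H2bc1, had 4 measured genes at 2.67 to 2.77 in WT and 2.75 to 2.80 in cKO, below the array median, and no erythroid marker had a row of its own.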

How the data were processed

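Per the submitters' processing notes, the deposited log2 values were made with RMA, a method of background correction, quantile normalization and probe summary, and limma was used. Their settings were not given in the sources used here. Values lay between 0.853 and 12.9, array medians between 3.64 and 3.71, and 2 arrays correlated across rows with r of 0.976 to 0.989. Of 41345 rows, 23521 carried 1 symbol, 1814 several, and 16010 are unnamed here. Symbols were taken by gene identifier from RefSeq (GRCm38.p6) for 23328 rows; no member's symbol changed.

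All rows with 1 symbol were fitted in R 4.3.3 by limma 3.58.1, using its lmFit and eBayes steps without covariates and a two-sided test of cKO minus WT, with Benjamini-Hochberg adjustment over these rows and a threshold of 0.05. The method was tested on simulated data. Single genes were also tested by exact two-sided permutation of the 8 tumors. Lists are described by counts and medians, without a test. Members and lists were chosen with earlier results of these data known.

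Named genes were, per histone type, the 4 members with the smallest p, the brightest and the one with the lowest difference; per pathway list, the 4 with the smallest p; and Mmp14, Slbp, Npat, Nasp and Casp8ap2. Other members are named to account for all 25. Alternatives were a further quantile normalization, a shift to a common median, filters on dim rows, another variance model, blocks by replicate or array number, all rows tested, other rows of a gene and each tumor left out. Promoter sequences are RefSeq's, of GRCm38.p6. The number of arrays limits the precision.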

Additional observations from a re-analysis of the deposited data

Results flagged for a closer look

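In 6 of 100 groups of 4 tumors examined, of single genes or of scores, a tumor stood far from the other 3, where chance gives about 1 in 20. In 4 of the 6 this tumor was cKO 3. H1f5 was at 6.28 in cKO 3 and at 7.02 to 7.11 in the other cKO tumors. H2ac12 was at 1.54 in cKO 3 against 1.72 to 1.73, a gap of small size at a dim level. The centromeric histone gene Cenpa was at 6.32 in cKO 3 against 6.68 to 6.74. The score of all members was −0.0357 in cKO 3 against 0.16 to 0.18. This score includes H1f5 and H2ac12, so these flags are not independent. In the WT group, H1f1 was at 1.79 in WT 4 against 2.10 to 2.14, and H2bc9 at 3.33 in WT 3 against 2.68 to 2.76.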

How the results depend on the processing

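Most results kept their direction and their side of the threshold. With arrays shifted to a common median, 1 member passed the threshold where 0 did otherwise. With only rows of a mean of at least 5, 9 of 10 members were higher, and the median difference was 0.65 over all members, 0.59 for H1, 0.65 for H2A and 0.66 for H2B genes. With only rows at or above the median of all rows, 11 of 13 were higher, and the medians were 0.41 over all, 0.53 for H2A and 0.66 for H2B genes; both filters drop the dim members. With the lowest-mean row of a gene, the H2A median was 0.0010 and H2ac21 stood at −0.0708, and with the mean over a gene's rows they were 0.12 and 0.17, against 0.24 and 0.41 with the highest-mean row. H2bc1 reversed to −0.0120 after quantile normalization and H2bc9 to 0.0072 after the median shift. With 1 tumor left out, 6 to 10 members had groups apart, where the 10, without cKO 3, stood beside 5.99% of all rows. In these fits the H2B median ran from 0.0835 to 0.2429 and the H4 median from −0.0413 to 0.10. In some such fit 7 members changed sign. H2bc14, at 0.17 with all tumors, ran between −0.0046 and 0.31, and H4c8, at −0.24, between −0.47 and 0.12. H2bc22 ran between −0.0832 and 0.0477, H2bc1 between −0.0246 and 0.0325 and H2bc9 between −0.11 and 0.14. H4c2 ran between −0.0215 and 0.10 and H4c14 between −0.0413 and 0.13. The cause of these moves was not tested. No H3 median could be computed, since no H3 gene has a row of its own.

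The replicate number, as a block, left no member past the threshold and no row at all, against 2 without it, and 1898 rows had an unadjusted p below 0.05 in that limma fit. Deviations of tumors of the same number correlated at 0.01, −0.14, 0.24 and −0.18. Of 4 WT tumors, 1 correlated best with the cKO tumor of its number. The labels do not say what the numbers mark, and with so few tumors these values cannot show whether the numbers pair them. With the array number, 1 to 4 against 5 to 8, as a block, 1 row passed. The adjusted p of Mmp14 was 0.354 with the replicate block, 0.0708 with the array block and 0.0429 to 0.211 with 1 tumor left out. Over all rows, 3 passed after the median shift and 8 with all 41345 rows tested. Adding 5 genes whose older symbols match, among them H4f16 at 0.49 (SE 0.27), was chosen after seeing the data and left no member past the threshold.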
